A study of Mus musculus with 6 samples.

Results

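The 10 genes described here are markers of the differentiated absorptive cell of the colonic surface. They are Car1, Car2, Car4, Aqp8, Slc26a3, Krt20, Guca2a, Guca2b, Ceacam1 and Ceacam20, and they were taken by symbol alone as known markers of surface colonocytes. All 10 were found, each on 1 row, among the 25067 rows of the table, and all 10 entered the test across 13210 rows, those whose normalized count averaged 10 or more, although Car4 reached that mean only through its 4-OHT values. The measurements come from bulk RNA-seq of mouse colonic organoids, crypt-derived epithelial cultures grown in a medium with WNT3A, R-spondin 1, Noggin and EGF. Both groups were C57BL/6, 8 weeks old by the labels, and carried floxed alleles of Prkci and Prkcz, the 2 atypical protein kinase C (aPKC) genes, together with Villin-CreERT2, a tamoxifen-inducible Cre recombinase driven in intestinal epithelium. The 3 libraries of one group had received 4-OH tamoxifen (4-OHT) at passage, and the 3 of the other ethanol vehicle, in each case 3 days before RNA extraction. The labels describe the vehicle libraries as wild type, but these carry the same floxed alleles and CreERT2. No group here received 4-OHT without Cre or without floxed alleles, so loss of the kinases, Cre activity and 4-OHT itself cannot be told apart. The labels do not say whether the 3 libraries of a group came from separate animals or cultures, so the p-values measure only the spread between these libraries.

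Colonic stem cells at the crypt base give rise to absorptive cells that mature as they move up to the surface, where they take up salt and water. Mature colonocytes carry carbonic anhydrases, which supply the protons and bicarbonate exchanged by Slc26a3 and its partner Slc9a3, and they release the peptides guanylin and uroguanylin, which act on the receptor Gucy2c of neighbouring epithelial cells. Medium rich in WNT and R-spondin favours crypt-base cells, so organoids grown in it are generally less differentiated than surface epithelium.

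The table holds 15804709 to 26957612 reads in the vehicle libraries and 17603040 to 19588575 in the 4-OHT libraries, as recovered from the normalized counts. Prkcz fell from 879.8, 903.7 and 954.0 normalized counts in vehicle to 287.2, 265.4 and 290.3 in 4-OHT (log2 -1.70, SE 0.08; limma adjusted p = 3.2e-12), whereas Prkci moved by -0.22 (SE 0.05; limma adjusted p = 0.00081). Reads were not analysed along these genes, so the values do not measure the share of recombined alleles. Of all rows tested, 43.6% passed the threshold of 0.05 on the limma adjusted p, 22.7% higher and 21.0% lower in 4-OHT, and the count for the 10 genes is read against these shares.

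Of the 10 genes, 5 (50%) rose with 4-OHT and 0 fell, against 22.7% and 21.0% of all rows. The median log2 fold change of the 10 was 0.60, against -0.005 for all rows. These figures include Car4, which entered the test only through its 4-OHT values and so could hardly have been called lower. At a minimum mean of 50, where Car4 and Aqp8 dropped out, 3 genes rose and 0 fell. The median was then 0.26, against 0.001 for all rows. Guanylin and uroguanylin (Guca2a and Guca2b) and carbonic anhydrase 1 (Car1) rose in all 3 libraries beyond every vehicle value, by 1.89-fold to 2.77-fold. Carbonic anhydrase 4 (Car4) and aquaporin 8 (Aqp8) rose as well, from levels near the lower limit of what these libraries measure, and the sizes of both changes rest on few reads. Car2, Slc26a3, Krt20, Ceacam1 and Ceacam20 did not pass the threshold. In 4 of the 10 genes, Car4 among them, all 3 4-OHT values lay above all 3 vehicle values, against 26.8% of all rows. No fall was found at an unadjusted limma p under 0.05 either (0 genes), nor with edgeR (0) or DESeq2 (0), but quantile normalization gave 5 rises and 2 falls (Car2 and Ceacam1). The count of 5 moved with single libraries. It was 3 without 4-OHT replicate 3 (Car4 then under the minimum mean, Aqp8 no longer past the threshold), 4 without vehicle replicate 1 (Aqp8 lost) and 6 without vehicle replicate 2 (Krt20 added). It stayed at 5 without vehicle replicate 3 or 4-OHT replicate 1, but with Slc26a3 or Krt20 in the place of Aqp8. In bulk RNA a rise in the number of cells that express a gene and a rise in RNA per cell cannot be told apart, and this holds for every value below.

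**Figure D1:**
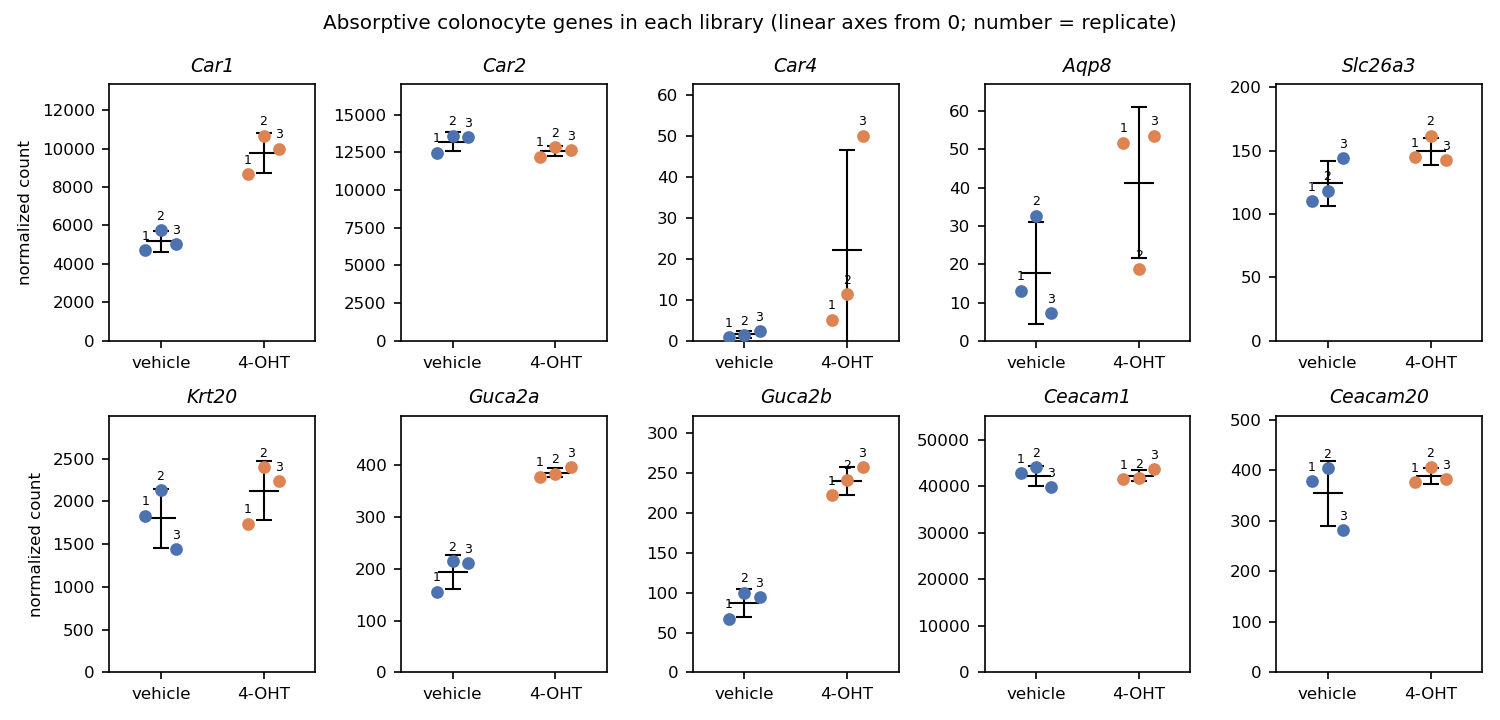
Normalized count (linear axes from 0) of each of the 10 genes in the 3 vehicle libraries (blue) and the 3 4-OHT libraries (orange), numbered by replicate, with the group mean and SD in black (the SD bar of Car4 in 4-OHT runs below 0 and is cut at the axis). Car1, Guca2a, Guca2b and Car4 do not overlap between groups, whereas Car2, Ceacam1, Ceacam20, Krt20, Slc26a3 and Aqp8 do.

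Guca2a and Guca2b encode the ligands of Gucy2c, and they lie next to each other on chromosome 4 (GENCODE M21, GRCm38), on opposite strands, 17.1 kb apart with 0 annotated genes between them. The 250 bases before the start of each are shown because these neighbours rose together, and those of Slc26a3, on chromosome 12, because it did not pass the threshold. The sequences are RefSeq's for GRCm38.p6 (the submitters' notes name GRCm39, where positions differ), at chr4:119637482-119637731 on the plus strand for Guca2a, chr4:119658946-119659195 on the minus strand for Guca2b and chr12:31437969-31438218 on the plus strand for Slc26a3. Capitals mark letters of the motifs described in the next paragraph, and each run reads 5′ to 3′ towards the gene.
Guca2a: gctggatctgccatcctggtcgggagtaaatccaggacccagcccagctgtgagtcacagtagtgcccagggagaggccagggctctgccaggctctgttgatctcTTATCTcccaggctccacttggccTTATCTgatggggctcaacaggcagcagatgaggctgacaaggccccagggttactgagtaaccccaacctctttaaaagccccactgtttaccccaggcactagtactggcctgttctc
Guca2b: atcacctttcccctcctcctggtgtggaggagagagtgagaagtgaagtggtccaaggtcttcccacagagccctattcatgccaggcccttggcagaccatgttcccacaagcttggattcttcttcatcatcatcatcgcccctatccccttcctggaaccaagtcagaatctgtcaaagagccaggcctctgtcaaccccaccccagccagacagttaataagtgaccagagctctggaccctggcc
Slc26a3: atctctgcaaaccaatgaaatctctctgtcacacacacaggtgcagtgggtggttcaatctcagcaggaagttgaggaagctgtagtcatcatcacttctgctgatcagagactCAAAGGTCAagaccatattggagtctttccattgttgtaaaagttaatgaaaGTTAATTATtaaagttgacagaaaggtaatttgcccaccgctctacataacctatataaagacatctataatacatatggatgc

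The motifs searched, on both strands, were those of factors known in intestinal epithelium: TTTATNG for CDX, CAAAGNNCA for HNF4, GTTAATNAT for HNF1, and TGATAA and AGATAA for GATA. The Guca2a window held AGATAA 2 times on the reverse strand, read as TTATCT at 139 to 144 and at 115 to 120 bases before the start, letters that 9.99% of all 32851 promoter windows of the same length hold at least once. No letters of the 5 searches were found in the Guca2b window, nor in those of Car4, Aqp8 and Ceacam1, which says nothing about binding. Slc26a3 held CAAAGGTCA at 128 to 136 bases and GTTAATTAT at 76 to 84 bases before the start, motifs that 5.49% and 0.737% of all windows hold. The windows of Krt20 and Ceacam20 each held a CDX match, a motif in 9.81% of windows, the one of Krt20 within the letters CTATAAA at 24 to 30 bases before the start, which also spell a TATA box. Krt20 also held AGATAA. Of the 10 genes 8 had a window in the table. These matches describe letters, and whether they go with a change in RNA was not tested. The 3 genes with a CDX, HNF4 or HNF1 match did not pass the threshold, but neither did Ceacam1, which held no match. AGATAA was found both in Guca2a, which rose, and in Krt20, which did not pass.

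Guca2a, the gene of guanylin, measured 155.8, 214.2 and 210.6 normalized counts in vehicle replicates 1, 2 and 3 and 378.1, 383.5 and 396.1 in 4-OHT replicates 1, 2 and 3. The groups were well apart, and the 4-OHT libraries lay closer together (2.4% coefficient of variation) than the vehicle libraries (16.9%). The change was 2.01-fold (95% interval 1.7 to 2.37; log2 1.01, SE 0.12; limma adjusted p = 7e-07). Guca2b, the gene of uroguanylin, measured 67.17, 100 and 94.43 in vehicle and 222.1, 241.5 and 257.3 in 4-OHT. It changed by 2.77-fold (2.23 to 3.44; log2 1.47, SE 0.15; limma adjusted p = 1.6e-07). In both genes vehicle replicate 1 was the lowest library, and without it the log2 fold changes were 0.86 and 1.30.

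In these libraries the ligands did not rise in proportion, a difference that 3 against 3 libraries could not test at 0.05. The ratio of Guca2a to Guca2b, which needs no scaling between libraries, was 2.32, 2.14 and 2.23 in vehicle and 1.7, 1.59 and 1.54 in 4-OHT, lower in all 3 libraries (log2 difference -0.47; exact two-sided permutation p = 0.1, the smallest that 3 against 3 libraries can give). Gucy2c, their receptor guanylate cyclase, went the other way and fell from 2363 ± 84.3 to 1961 ± 94 normalized counts (SD, n = 3 each; log2 -0.27, SE 0.05; limma adjusted p = 0.00027). Of the 6 tested genes of the receptor's pathway, Gucy2c was the only one past the threshold; of the other 5, 1 (Prkg2) had an unadjusted limma p under 0.05 and 0 passed with edgeR or DESeq2. Of all rows tested, 43.6% passed the limma threshold in either direction. Cftr, the chloride channel opened downstream of cyclic GMP, measured 626.1 ± 12.7 and 620 ± 12.8. Prkg2, the cyclic GMP-dependent kinase of this epithelium, measured 553.3 ± 14.3 and 612.3 ± 15.1 (limma adjusted p = 0.097).

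The 3 carbonic anhydrases of the set behaved differently from one another. Car1, the cytosolic isoform typical of the colon, measured 4724, 5756 and 5030 normalized counts in vehicle and 8657, 10662 and 9997 in 4-OHT. It rose by 1.89-fold (1.71 to 2.09; log2 0.92, SE 0.07; limma adjusted p = 2.6e-09), the smallest p of the 10 genes. Car2, the more widely expressed cytosolic isoform, measured 12459, 13591 and 13495 in vehicle and 12206, 12835 and 12649 in 4-OHT. Its values overlapped, with a log2 fold change of -0.07 whose 95% interval (-0.16 to 0.03) leaves no room for a change like that of Car1 (limma adjusted p = 0.23). Under quantile normalization, however, Car2 passed the threshold at -0.19. The ratio of Car1 to Car2 within a library went from 0.379, 0.423 and 0.373 to 0.709, 0.831 and 0.79 (log2 difference 0.99; exact permutation p = 0.1, the smallest possible). By count, Car1 stayed below Car2 in every library. Corrected for exon length, Car1 stood below Car2 in vehicle (4142 against 5442 normalized counts per kb) and above it in 4-OHT (7830 against 5187). That change of order rests on the lengths used, 1.25 kb for Car1 and 2.42 kb for Car2.

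Car4, the membrane-anchored carbonic anhydrase of the apical surface, was nearly undetected in vehicle, with 1, 2 and 2 reads in replicates 1, 2 and 3, and had 5, 11 and 44 reads in 4-OHT. These correspond to 0.933, 1.419 and 2.421 and to 5.166, 11.4 and 50.09 normalized counts. The groups do not overlap, but 4-OHT replicate 3 alone held 44 of the 60 reads of its group, and the exact 95% Poisson intervals of 2 reads (0.242 to 7.22) and of 5 reads (1.62 to 11.7) overlap. On the log2 scale with 1 added, the change was 2.64 (SE 0.70; limma adjusted p = 0.0043), and it ranged from 1.22 with a pseudocount of 10 to 3.85 with DESeq2 on the reads. Without 4-OHT replicate 1, the lowest of its group, it was 3.32. The pooled reads per size factor gave a ratio of 14.1, with a counting interval of 5.73 to 45.1. Without 4-OHT replicate 3 this ratio was 5.48 (1.92 to 19.1), and a limma fit with no minimum mean gave a log2 fold change of 1.80 with an adjusted p of 0.069. The direction of Car4 was thus shared by all libraries, while its size and its call rested on 1 library.

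Aqp8, a water channel of the colonic surface, measured 13.06, 32.63 and 7.264 normalized counts in vehicle (14, 46 and 6 reads) and 51.66, 18.66 and 53.5 in 4-OHT (50, 18 and 47 reads). The groups overlap, because 4-OHT replicate 2 lay below vehicle replicate 2. The change of 2.43-fold (1.27 to 4.66; log2 1.28, SE 0.45; limma adjusted p = 0.026) was lost without vehicle replicate 1 (1.20; limma adjusted p = 0.066), vehicle replicate 3 (0.82; 0.16), 4-OHT replicate 1 (1.06; 0.093) or 4-OHT replicate 3 (1.03; 0.12). The spread between libraries exceeded counting: the exact Poisson interval of the 46 reads in vehicle replicate 2 was 33.7 to 61.4, that of the 6 reads in vehicle replicate 3 was 2.2 to 13.1. Slc26a3, the chloride-bicarbonate exchanger of the apical membrane, measured 110.1, 118.5 and 144.1 in vehicle and 144.6, 161.7 and 142.3 in 4-OHT. Its log2 fold change was 0.27 (95% interval -0.02 to 0.57; limma adjusted p = 0.12), and without vehicle replicate 3, the highest of its group, it came to 0.38 with an adjusted p of 0.048.

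Krt20, the keratin of differentiated surface cells, measured 1833, 2130 and 1442 normalized counts in vehicle and 1740, 2399 and 2238 in 4-OHT. The groups overlap through 4-OHT replicate 1, and the log2 fold change of 0.24 (95% interval 0.02 to 0.47) did not pass after adjustment over all rows (limma adjusted p = 0.079). Leaving out 1 library decided the call, since without 4-OHT replicate 1 it was 0.38 (limma adjusted p = 0.003) and without vehicle replicate 2 it was 0.37 (0.007). The other 5 keratins of simple epithelia tested, Krt7, Krt8, Krt18, Krt19 and Krt23, rose, by 0.47 (Krt19) to 1.29 (Krt23) on the log2 scale, although for Krt19 this depended on the scaling (0.03 under quantile normalization, adjusted p = 0.57). Over all rows 22.7% were called higher. Whether Krt20 changed less than these 5 keratins was not tested. The ratio of Car1 to Krt20 within a library was 2.58, 2.7 and 3.49 in vehicle and 4.98, 4.45 and 4.47 in 4-OHT, so the 2 differentiation markers did not move in proportion (log2 difference 0.68; exact permutation p = 0.1, the smallest possible).

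Ceacam1 and Ceacam20 encode adhesion and signalling receptors of the apical surface. Ceacam1 measured 42749, 44083 and 39855 normalized counts in vehicle and 41550, 41686 and 43643 in 4-OHT, with a log2 fold change near 0 (0.003, 95% interval -0.10 to 0.10; limma adjusted p = 0.97). Its sign turned with the setting, and under quantile normalization it passed the threshold at -0.19. Ceacam20, whose known expression is more restricted to the intestine, measured 378.8, 404.3 and 282.1 in vehicle and 377.1, 406.3 and 382.5 in 4-OHT (log2 0.15, 95% interval -0.08 to 0.38; limma adjusted p = 0.3). Here vehicle replicate 3 was the low library, and without it the log2 fold change was -0.01. Ceacam2, a close paralogue of Ceacam1 with which reads could be exchanged, had a mean of 14.2 normalized counts in vehicle and 15.9 in 4-OHT, and how reads were assigned between them was not analysed. Of 5 kinases and phosphatases that act with these receptors, 1 rose and 0 fell, near the share of 22.7% higher over all rows. The 1 that rose was Src (log2 0.47, SE 0.04, limma adjusted p = 5.4e-08). Ptprh, the phosphatase paired with Ceacam20 at the microvilli, did not pass (log2 0.05, limma adjusted p = 0.62).

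**Figure D2:**
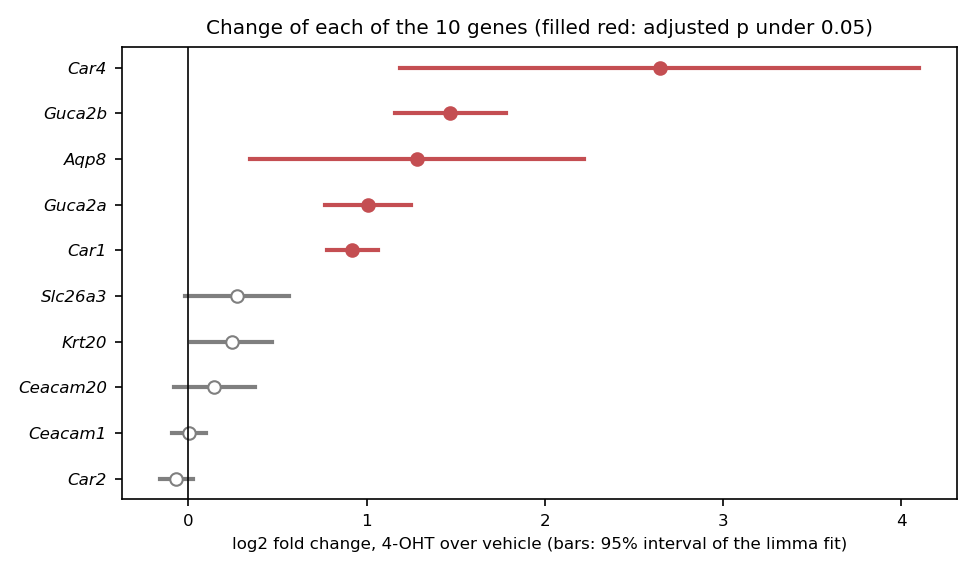
Log2 fold change, 4-OHT over vehicle, of the 10 genes with its 95% interval from the limma fit (bars), red and filled where the adjusted p is under 0.05. Car1, Guca2a and Guca2b combine a change of 0.92 to 1.47 with narrow intervals, whereas the intervals of Car4 (1.19 to 4.10) and Aqp8 (0.35 to 2.22) are wide.

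The levels of the 10 genes per kb of exon spanned nearly the whole range of the organoids' expressed genes. In vehicle, Ceacam1 (7273 ± 372 normalized counts per kb, SD, n = 3), Car2 (5442 ± 259) and Car1 (4142 ± 425) stood above 98.6% or more of the tested rows with a known length, and Krt20 (935 ± 179) above 92%. Guca2a (326 ± 55.1) stood above 75.7% of these rows, Ceacam20 (123 ± 22.3) above 51.3% and Guca2b (100 ± 20.2) above 45.9%. Slc26a3 (19.5 ± 2.78), Aqp8 (11.2 ± 8.41) and Car4 (0.809 ± 0.386) lay above only 17.4%, 11.5% and 0.194% of rows. Neighbours in this order were separated by more than their SDs except Ceacam20 and Guca2b, and Slc26a3 and Aqp8. In 4-OHT the order changed at several places: Car1 (7830 ± 818) overlapped Ceacam1 (7284 ± 202) and lay above Car2 (5187 ± 133), Guca2b (276 ± 20.2) passed Ceacam20 (135 ± 5.39), and Aqp8 (26.1 ± 12.4) overlapped Slc26a3 (23.5 ± 1.66). The label of differentiated colonocytes thus fits the organoids unevenly, with abundant Ceacam1, Car1, Car2 and Krt20 but with Slc26a3, Aqp8 and Car4 in the lowest part of the range.

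In a separate list of 24 other genes of absorptive colonocytes, 13 of the 22 tested rose, 2 fell and 7 did not pass, against 22.7% higher and 21.0% lower over all rows, with a median log2 fold change of 0.44. The largest rises were Slc5a8, a transporter of short-chain fatty acids (1.88, SE 0.44; limma adjusted p = 0.0016; 11.9 ± 8.52 and 42.1 ± 17.3 normalized counts), Tmigd1, an adhesion protein of the brush border (1.61, SE 0.30; 0.00017), and Fabp2, the intestinal fatty acid-binding protein (1.18, SE 0.18; 2e-05). The falls were Selenbp1, a selenium-binding protein of mature colonic epithelium, from 4431 ± 350 to 2461 ± 97.1 (-0.85, SE 0.06; limma adjusted p = 3.8e-10), and Slc16a1, the butyrate transporter also found in crypt cells, from 4049 ± 74.4 to 2960 ± 54.9 (-0.45, SE 0.04; 9e-08). Slc9a3, the sodium-proton exchanger that works beside Slc26a3, did not pass (0.46; 0.4). Among the tested genes, brush-border proteins such as Cdhr2 (0.43; limma adjusted p = 1.1e-06) and Vil1 (0.24; 7.4e-05) rose by less than the leading 3.

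Of 11 transcription factors of the absorptive lineage tested, 1 rose and 5 fell, against 22.7% and 21.0% of all rows, with a median log2 fold change of -0.12. Hes1, the Notch target that favours absorptive fate, rose (0.48; limma adjusted p = 2.8e-06). Cdx2, a factor of intestinal identity, fell (-0.26; 6.9e-05), as did Elf3 (-0.26; 0.00013). Smaller falls of Vdr (-0.19; 0.028) and Pparg (-0.17; 0.016) were lost when single libraries were left out: Vdr without vehicle replicate 2 or 3 or 4-OHT replicate 1 or 2 (adjusted p 0.064 to 0.15), Pparg without vehicle replicate 1 or 2 or 4-OHT replicate 1 (0.055 to 0.094). Hnf4a measured 13827 ± 195 and 13967 ± 173 normalized counts (0.02; 0.8).

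The relatives of the 10 genes went in mixed directions. Among the other carbonic anhydrases, 5 of 13 could be tested, of which Car5b (0.93; limma adjusted p = 0.018), Car8 (0.21; 0.023) and Car13 (0.18; 0.04) rose and Car12 (-0.55; 6.8e-07) and Car9 (-0.47; 1.2e-05), both membrane-bound isoforms, fell. The 3 rises were lost when 1 library was left out, Car5b and Car8 without vehicle replicate 3 (adjusted p = 0.12 and 0.092) or 4-OHT replicate 2 (0.1 and 0.079) and Car13 in 4 of the 6 cases (0.051 to 0.2) and with DESeq2 (0.064). Of the other aquaporins, 3 of 7 could be tested, and Aqp4 (-0.90; 1.6e-08) and Aqp1 (-0.76; 0.00014) fell, the opposite of Aqp8. None of the 3 tested Slc26 exchangers besides Slc26a3 passed with limma, edgeR or DESeq2, although 1 (Slc26a2) had an unadjusted limma p under 0.05, and of the 3 tested Ceacam genes besides Ceacam1 and Ceacam20, 0 passed with limma, edgeR or DESeq2 and 0 had an unadjusted limma p under 0.05. Over the 61 tested genes of all 9 related lists, 23 rose, 12 fell and 26 did not pass, with a median log2 fold change of 0.13, against 22.7% higher and 21.0% lower over all rows, so the share that fell was near that of all rows.

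**Figure D3:**
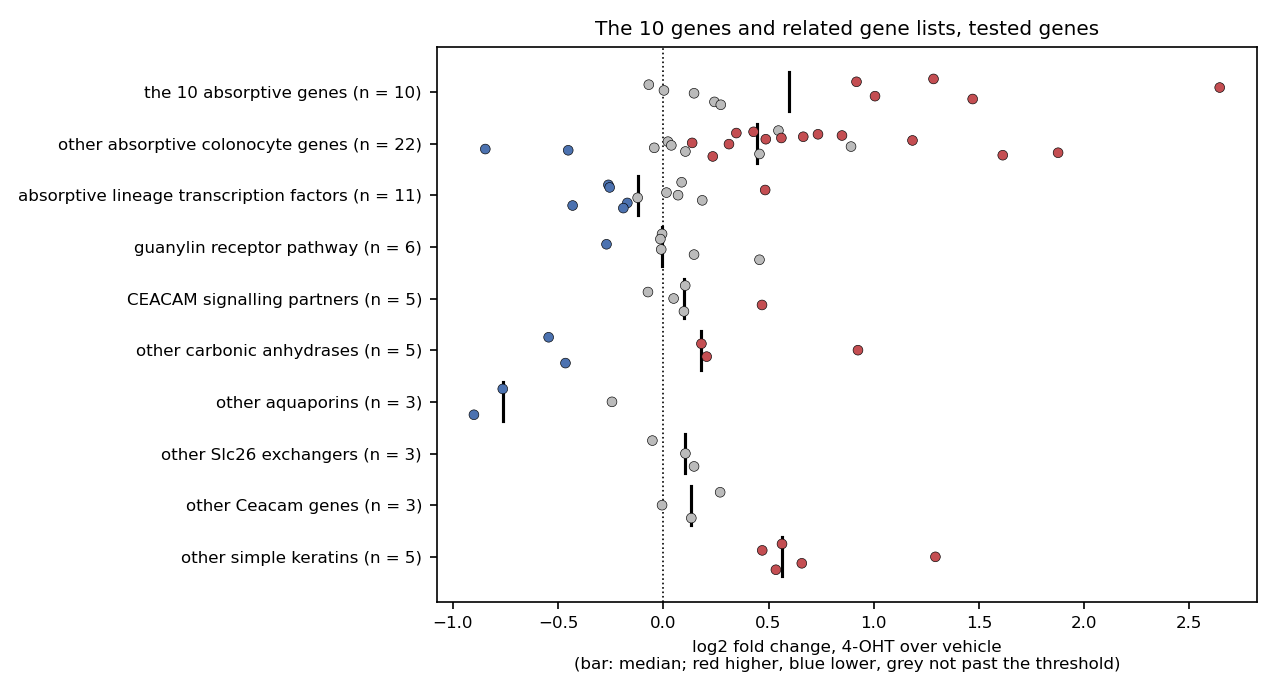
Log2 fold change, 4-OHT over vehicle, of each tested gene (points) of the 10 absorptive genes and of 9 related lists, with the list's median (black bar) and the genes that rose in red, those that fell in blue and those not past the threshold in grey. The other absorptive genes lie mostly to the right of 0 (13 rose, 2 fell), the transcription factors mostly to the left (1 rose, 5 fell).

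Summed markers of other cell types differed between the 4-OHT libraries. The Paneth and ileal list and the enterocyte list held genes also expressed in vehicle, such as Lyz1 (vehicle mean 195.2) and Slc5a1 (637.7). The 3 plasma cell genes (Igha, Igkc and Jchain) were at 0 in every vehicle library and summed to 1.03, 211 and 70.6 normalized counts in 4-OHT replicates 1, 2 and 3. The 6 smooth muscle genes summed to 2.8 to 13.3 in vehicle and to 14.5, 65.3 and 164 in 4-OHT, and the 6 fibroblast genes to 5.67 to 20.5 and to 8.26, 17.6 and 195, with Col3a1, Dcn and Lum at 0 in vehicle and again in 4-OHT replicate 1. The 10 Paneth cell and ileal genes summed to 231 to 402 in vehicle and to 289, 1325 and 994 in 4-OHT, and Defa22 was at 0 in vehicle and in 4-OHT replicate 1. The 10 small-intestinal enterocyte genes summed to 957 to 1065 in vehicle and to 1210, 1380 and 1583, above vehicle in all 3 4-OHT libraries. The 6 leukocyte genes summed to 31.9 to 40.1 and to 51.7, 102 and 106. In 4-OHT replicates 2 and 3 that sum was mostly Cd74 (80.85 and 67.16) and Csf1r (17.62 and 29.6). Ptprc, carried by leukocytes generally, had means of 2.32 in vehicle and 1.83 in 4-OHT. The 4 endothelial genes measured summed to 40.0 to 54.6 in vehicle and to 33.1, 47.7 and 52.4 in 4-OHT. The plasma cell, Paneth and smooth muscle sums were highest in 4-OHT replicates 2 and 3, and the fibroblast sum left the vehicle range in replicate 3.

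Car1, Guca2a and Guca2b lay above every vehicle library also in 4-OHT replicate 1. There the fibroblast and Paneth lists stood within the vehicle range, and the plasma cell list held 1 read. The smooth muscle (14 reads, against 11 in vehicle replicate 3), leukocyte and small-intestinal enterocyte lists lay above vehicle in that library. Its enterocyte sum was mostly Slc5a1 (697.4) and Apob (440.1), also expressed in vehicle (means 637.7 and 277.1). Its leukocyte sum was mostly Cd74 (34.09) and Csf1r (15.5), with vehicle means of 23.31 and 8.805. The part of these lists in the values of the 3 genes was not tested. With replicate 1 as the sole 4-OHT library, assumed to vary as the vehicle libraries do, the log2 fold changes were 0.75 for Car1, 0.98 for Guca2a and 1.36 for Guca2b (limma adjusted p = 1.8e-06, 0.00033 and 0.00022), against 0.92, 1.01 and 1.47 with all libraries. Aqp8 was 1.74 (0.03) in that fit, and Slc5a8 of the related list was 1.16 (0.19). Across the 4-OHT libraries Car4 was lowest in replicate 1 and highest in replicate 3. The smooth muscle, fibroblast, small-intestinal enterocyte and leukocyte lists had the same order, and so did Guca2a, Guca2b and Ceacam1. The share of all rows with this order was not counted, so it is not read as a trait of Car4. With replicate 1 as the sole 4-OHT library and no minimum mean, the log2 fold change of Car4 was 1.29. The part of other cell types in the value of Car4 was not tested. Within the epithelium, the lists of stem cells (8 of 8) and of proliferation (10 of 10) fell, against 21.0% lower over all rows. Of 8 goblet cell genes 6 rose and 1 (Fcgbp) fell, of 7 enteroendocrine genes tested 4 rose, and of 2 tuft cell genes tested 1 rose, against 22.7% higher over all rows. The share of each cell type in the organoids was not measured.

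**Figure D4:**
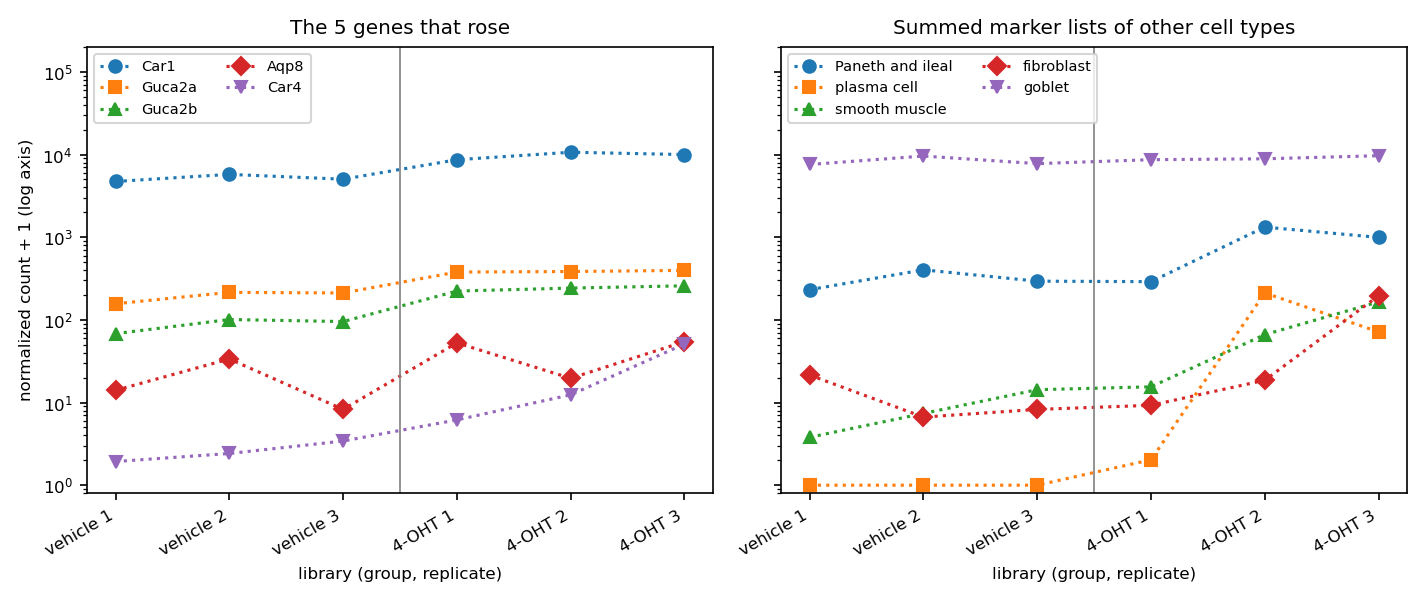
Normalized count plus 1 (log axis) in each of the 6 libraries for the 5 absorptive genes that rose (left) and for the summed marker lists of other cell types (right), with a grey line between the vehicle and the 4-OHT libraries and dotted lines that only link the points of 1 gene or list. Car1, Guca2a and Guca2b lie above all vehicle values in each 4-OHT library, whereas Car4 and the fibroblast, smooth muscle and plasma cell lists are low in 4-OHT replicate 1.

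The libraries of a group also differed from one another in these genes. In 4-OHT, replicate 1 was the lowest library in 8 of the 10 genes and the highest in 0. In vehicle, replicate 2 was the highest in 8 of 10. The share of all rows with these places was not counted, so they are not read as a trait of these genes. Krt20 and Ceacam20, which did not pass the threshold, shared 1 order of libraries within both groups (vehicle replicate 3 lowest and 2 highest, 4-OHT replicate 1 lowest and 2 highest), with vehicle replicate 3 lower than its group mean by 0.30 and 0.31 on the log2 scale. Of the 22 other absorptive genes tested, 8 (36.4%) had the same order, against 3.91% of all rows tested: Cdhr2, Cdhr5, Cldn23, Clca4a, Clca4b, Mall, Muc13 and Slc16a1. Aqp8 had another order, shared by Slc9a3 of that list, with 24.3, 46.8 and 19.4 normalized counts in vehicle and 52.7, 15.6 and 70.6 in 4-OHT, and by 2.63% of all rows. Both orders were noticed in the data, so their shares are descriptions with no test.

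**Figure D5:**
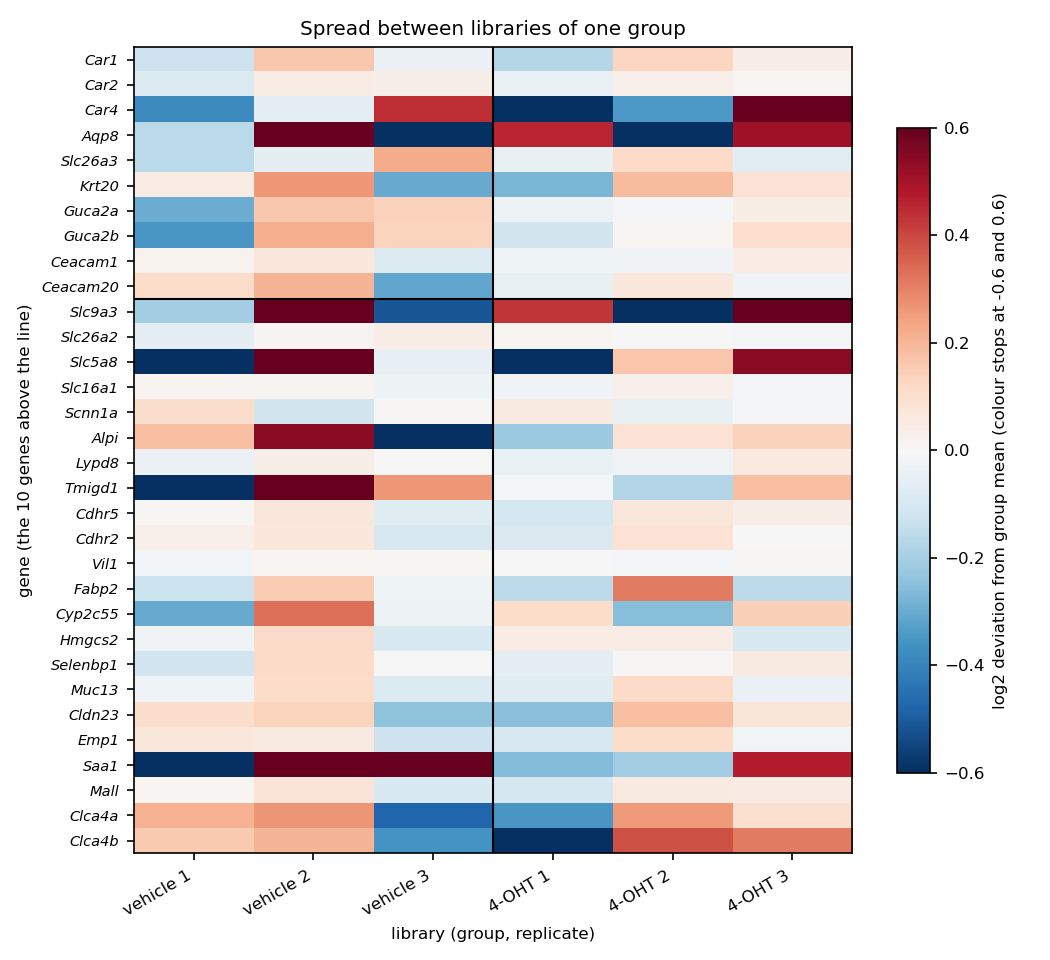
Log2 deviation of each library from the mean of its own group (colour, cut at -0.6 and 0.6) for the 10 genes (above the horizontal line) and the 22 other absorptive genes tested, in the 3 vehicle and 3 4-OHT libraries. Krt20, Ceacam20, Clca4a, Clca4b and Cldn23 are lowest in vehicle replicate 3 and in 4-OHT replicate 1, while Aqp8 and Slc9a3 are high in vehicle replicate 2 and low in 4-OHT replicate 2.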

How the data were processed

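RNA of 6 mouse colonic organoid libraries, 3 per group, was measured by RNA-seq. The authors deposited normalized counts, a signal in which a gene's reads are divided by the size factor of its library, with no correction for gene length. The submitters' processing notes name STAR, DESeq2 and the build GRCm39 (mm39); the counting tool, the annotation and strand use are not given in the sources used here. Every library's values (100%) lay within 0.1 reads of a whole multiple of the value of 1 read, and this gave the reads back. The groups were compared by limma-trend (limma 3.58.1, R 4.3.3) on log2(normalized count + 1), over the 13210 rows with a mean of at least 10, with Benjamini-Hochberg adjustment over these rows and a threshold of 0.05. A pseudocount of 1 understates the fold of low genes. Ratios within a library were compared by the exact two-sided permutation test. Lengths are exon unions from GENCODE M21 (GRCm38), found for 97.5% of tested rows. Read intervals (95%) cover counting error only, and 3 reads were taken as the floor of a library.

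Repeated libraries of 1 group differed by 3.35 to 6.04 times the variance of counting (chi-square per degree of freedom), so none is a copy. The first principal component (58.2% of the variance) separated the groups, and the second (14.1%) set 4-OHT replicate 1 apart from replicates 2 and 3. The fits were tested on simulated data with known changes.

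Alternatives changed the pseudocount (0.1 or 10), the minimum mean (none or 50) or the scaling (TMM or quantile normalization), added a replicate block, or left out each library in turn and 4-OHT replicates 2 and 3 together. DESeq2 1.42.0 and the quasi-likelihood test of edgeR 4.0.16 were run on the recovered reads. The fits of Car4 with no minimum and fewer libraries, and those of the related genes named, were added after the data were seen.

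The 10 genes and the gene lists were chosen with earlier results of these data known. Named in the text are all 10 genes, Prkci and Prkcz, and in each related list every gene past the threshold, or where over 6 passed, the 3 largest rises and 3 largest falls, except that 1 gene is not reported here; Cdhr2, Cdhr5, Cldn23, Clca4a, Clca4b, Mall, Muc13, Vil1, Slc9a3, Cftr, Prkg2, Ptprh, Hnf4a, Slc26a2 and Ceacam2 were named after their values were seen. Promoter windows were matched by symbol, and AGATAA was added to the motifs after the windows had been read.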

Additional observations from a re-analysis of the deposited data

How the results depend on the processing

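Over 16 alternatives, 3848 to 5780 rows passed the threshold, against 5765, and the higher calls made up 50.2% to 53.7% of them. Of the 10 genes, 3 to 7 passed, against 5, with 3 at a minimum mean of 50, where Car4 and Aqp8 dropped out; leaving out 1 library gave 3 to 6. Car1 (log2 0.75 to 1.00), Guca2a (0.86 to 1.09) and Guca2b (1.30 to 1.58) kept their direction and stayed past the threshold in all 16. Car4 stayed past it in the 13 that gave a value (1.22 to 3.85). At a minimum of 50, without 4-OHT replicate 3 and without 4-OHT replicates 2 and 3 it fell under the minimum. The 13 thus hold no fit without 4-OHT replicate 3, its highest library. Refitted with no minimum, Car4 did not pass without that library (log2 1.80, limma adjusted p = 0.069). Without 4-OHT replicates 2 and 3 its log2 fold change was 1.29. Values near 0 changed sign: Krt20 without 4-OHT replicates 2 and 3 (-0.032), Ceacam20 without vehicle replicate 3 (-0.011; 0.248 without vehicle replicate 2), and Ceacam1 under quantile normalization (-0.19; adjusted p = 0.0018), without vehicle replicate 3 (-0.038; 0.035 without vehicle replicate 2), without 4-OHT replicate 3 (-0.020), without 4-OHT replicates 2 and 3 (-0.022), with edgeR (-0.003) and with DESeq2 (-0.001). The cause was not tested. Of 510 values of 32 other genes, each past the threshold in the main fit, 486 stayed past it, 24 did not and 0 changed sign. Genes named that had not passed in the main fit were not part of this count.

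Same-numbered libraries did not deviate together (correlations across genes -0.007, 0.03 and -0.02), and not every library correlated best with its own number. No pairing by number was thus seen, though 3 libraries per group cannot exclude one. With the replicate block 5637 rows and 6 of the 10 genes passed, Krt20 being added (0.24; adjusted p = 0.0085). The depth limits Car4, with 5 reads in vehicle in all, and Aqp8, with 66.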

Other observations

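Among the secretory genes beside the absorptive ones, Clca1, a goblet cell gene, had the largest rise of its list (log2 1.28, SE 0.20, limma adjusted p = 3.2e-05). It went from 163.3 ± 32.5 to 416.9 ± 188 normalized counts (SD, n = 3 each). Its 4-OHT values were 311.0, 305.8 and 634.1. Without 4-OHT replicate 3 the log2 fold change was 0.93 (limma adjusted p = 7.2e-05). Fcgbp fell from 2163 ± 280 to 1725 ± 112 (log2 -0.32, SE 0.07, limma adjusted p = 0.0012). Muc2, the main gel-forming mucin, measured 2616 ± 489 and 2318 ± 192 (log2 -0.16, limma adjusted p = 0.14). Of the enteroendocrine genes, Pyy, a peptide hormone of the distal gut, rose from 48 ± 9 to 98.7 ± 5.01 (1.04, SE 0.19; limma adjusted p = 0.00014), and Neurog3, which marks their progenitors, measured 28.4 ± 10.5 and 30 ± 5.41 (0.13; 0.76). These genes were named after their values were seen.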
